A study of Mus musculus with 7 samples.

Results

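The genes described here encode the protein subunits of the cytosolic ribosome. They were taken by symbol: Rpl or Rps followed by digits with at most 1 ending letter (a, l, x or y), together with Rpsa and the stalk genes Rplp0, Rplp1 and Rplp2. The rule gave 80 of the 20839 genes listed in the files, 49 of the large and 31 of the small subunit, and 78 of them were listed in all 7 libraries. Rpl3l was listed in 3 libraries and Rpl39l in 5. Other genes of cytosolic ribosomal proteins fall outside the rule, among them Fau, Rps3a1, Rpl22l1 and Rpl36al.

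The cells came from a mouse study of medullary thymic epithelial cells (mTECs), the thymic cells that show self-antigens to developing T cells, and of how the compartment is lost and rebuilt when RANKL, a cytokine mTECs depend on, is blocked. Thymic epithelial cells (EpCAM+ CD45-) were sorted and each library pooled 3 thymi, with 1 library per group. C57BL/6 mice received 100 µg of anti-RANKL or of isotype control antibody, given as 3 treatments within 1 week. The anti-RANKL libraries were taken at weeks 2, 4, 6 and 10, at ages of 4, 6, 8 and 12 weeks, and the isotype libraries at weeks 2 and 10, at ages of 4 and 12 weeks. The seventh library, the Aire trace, came from 6-week-old C57BL/6 mice carrying Aire-CreERT2 and R26-CAG-Stopfl-zsGreen that received 2 mg tamoxifen every other day for 10 days. The Cre of this line is active where Aire is transcribed.

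The ribosome translates mRNA into protein, and its small subunit reads the message while its large subunit joins the amino acids. Subunits are assembled in the nucleolus from ribosomal RNA and proteins, with many assembly factors, so the demand for ribosomal proteins is known to go with growth and division. Many mRNAs of ribosomal proteins begin with a terminal oligopyrimidine (TOP) tract, a run of C and T at the cap through which mTORC1 controls their translation.

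The windows of 30 bases around the annotated start (15 before it and 15 from it on) are shown for genes whose levels the comparisons turn on. They were read from RefSeq on GRCm38.p6, in which 59 of the 80 genes had an entry. Capitals mark CTTTC or CTTTT, a short form of the TOP core searched on the gene's strand. The pair Rps27 and Rps27l is shown because the paralogs differed in opposite directions between cells, and the others because they are the members with the 4 highest log2 differences in the Aire gate or in the cycling gate, except Rpl23a, which is named only. The windows are Rps27 at chr3:90213634-90213663 (minus strand), Rps27l at chr9:66946071-66946100 (plus), Rps12 at chr10:23787195-23787224 (minus), Rplp0 at chr5:115559452-115559481 (plus), Rpsa at chr9:120127751-120127780 (plus), Rps2 at chr17:24720048-24720077 (plus), Rpl12 at chr2:32961697-32961726 (plus) and Rpl4 at chr9:64173372-64173401 (plus).
Rps27: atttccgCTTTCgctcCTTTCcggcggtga
Rps27l: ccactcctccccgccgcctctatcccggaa
Rps12: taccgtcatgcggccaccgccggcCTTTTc
Rplp0: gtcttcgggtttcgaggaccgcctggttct
Rpsa: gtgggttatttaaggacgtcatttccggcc
Rps2: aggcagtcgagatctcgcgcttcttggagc
Rpl12: ggcggagcaggatccgtCTTTTcggCTTTC
Rpl4: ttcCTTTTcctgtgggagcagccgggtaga
One of these letter runs lay in the window of 21 of the 59 genes (35.6%) and of 8.11% of all 27025 genes in the table. Of these 8 genes, Rps27, Rps12, Rpl12 and Rpl4 held one and Rps27l, Rplp0, Rpsa and Rps2 did not. Genes that were higher in the same cells thus occurred with and without a match. A window without a match can hold another run of C and T, so it does not show that a gene lacks a TOP tract. Over the whole window of 250 bases before to 50 after the start and on both strands, CCGGAAG, a core of ETS-family sites, occurred in 42.4% of the 59 genes and 9.93% of all genes. CACGTG, the E-box bound by MYC among others, occurred in 10.2% and 8.09%. AAGATGGC, a core of YY1 sites, on both strands was in 8.475% and 3.19%, and TATAAA on the gene's strand in 8.475% and 9.77%. CTTTC and CTTTT can overlap by 1 base. These are matches of letters and no measure of binding.

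Counts of molecules (UMIs) were recovered from the deposited values, and levels are given as CPM (a gene's UMIs scaled to a common total of UMIs of the cells summed, with no division by gene length), over the 8220 of 8453 cells with Ptprc (CD45) at 0. The libraries held 3857876 to 22197691 UMIs in all. The median depth per library was 4281 to 17135 UMIs per cell, lowest in the anti-RANKL week 6 and week 4 libraries, and 50 barcodes occurred in more than 1 library. Cells were gated on 4 properties: Aire above 1.5 and Ccl21a above 4 on the deposited natural-log scale, any Trpm5 (a channel of tuft cells), and at least 3 of the cell cycle genes Top2a, Birc5, Cdk1 and Ube2c detected. The gates held 1769, 3451, 545 and 479 cells, 2515 cells passed none and 523 passed more than 1. Genes that did not define the gates followed them. Fezf2, a regulator of self-antigen genes, was at 508 to 964 CPM in the Aire gate and 145 to 296 in the Ccl21a gate, Krt5 at 1482 to 2443 in the Ccl21a gate and 61.2 to 368 in the Aire gate, Dclk1 at 153 to 615 in the Trpm5 gate and 12.0 to 36.3 in cells of no gate, and Mki67 at 68.6 to 168 in the cycling gate and 4.33 to 11.4 in cells of no gate. Doublets were not called.

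Ribosomal protein genes took a large share of the transcriptome. Their share of all UMIs was 20.7% in the Aire trace library, 21.7% and 21.0% in the isotype libraries of weeks 2 and 10, and 20.7%, 21.9%, 22.6% and 21.7% in the anti-RANKL libraries of weeks 2, 4, 6 and 10. All libraries thus lay within about 2 percentage points. Of the 80 genes, 78 were detected in over 90% of the cells, 62 stood among the 100 most abundant genes and 77 among the top 200. The median gene was at 2622 CPM.

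By level, the highest genes included Rpl41, which encodes the smallest ribosomal protein (median of the libraries 8303 CPM, range 7126 to 9203), Rpl39 (5059), Rps29 (4921) and Rpl13 (4544). The 5 lowest were Rpl5, part of the 5S particle that also binds Mdm2 (822), Rpl6l (684), Rps27l (612), Rpl39l (0.417) and Rpl3l (0, since only 3 libraries listed it). GENCODE vM21 annotates Rpl6l as a processed pseudogene, so its UMIs may come from Rpl6 and its values are uncertain.

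The paralogs Rpl3l and Rpl39l, known for expression in muscle and testis, were near absent. In the 3 libraries that listed it, Rpl3l had a UMI in 8 of 1458 Aire-gate cells (0.549%, exact binomial 95% interval 0.237 to 1.08%) and in 0 of 614 Ccl21a-gate cells. With 3 counts taken as the limit that a count of 0 allows, up to 0.489% of the latter could hold a UMI (exact binomial upper end 0.599%), which limits cells with a UMI at a median depth of 7740 UMIs and not cells expressing the gene. In the 5 libraries that listed it, Rpl39l had a UMI in 16 of 1542 Aire-gate cells (1.04%, 0.594 to 1.68%) and 4 of 2242 Ccl21a-gate cells (0.178%, 0.0486 to 0.456%). The same gene was found in 5 of 153 cells with Ptprc (3.27%, 1.07 to 7.46%). The median depths for Rpl39l were 13340 UMIs per cell in the Aire gate, 6885 in the Ccl21a gate and 9051 in the cells with Ptprc, so the gates were not read at one depth. These intervals cover counting error only.

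Across libraries most members varied little. The highest library exceeded the lowest by 1.07 times for Rps16 and by a median of 1.27 times over the members, against 1.71 times for all 8353 genes at a median of at least 10 CPM. The widest ranges belonged to Rpl6l (2.50 times), Rps28 (1.90), Rps12 (1.86), Rps21 (1.86), Rps27 (1.82) and Rpl35 (1.80).

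The anti-RANKL libraries of weeks 4 and 6 stood apart from the other 5 in a few of these genes. Rpl6l was at 1092 and 1160 CPM in them and at 464 to 688 elsewhere, Rps28 at 4595 and 4417 against 2418 to 3208, and Rpl35 at 3088 and 3175 against 1765 to 2328. Rps27rt, a retrogene close in sequence to Rps27 and outside the rule, was at 2841 and 3665 CPM in them and at 397 to 821 in the others. Among cells of no gate, which stand outside every gate, the share of ribosomal protein UMIs was 23.7% and 23.3% in these libraries and 18.1% to 19.6% in the others. These libraries were also the shallowest, and the part of depth or preparation in these differences was not tested. Counts of calls below are also given without both where they moved by over 1.5 times.

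Cycling cells carried the highest share of ribosomal protein UMIs, 24.4% ± 1.8 (SD, n = 7 libraries) against 21.0% ± 0.83 outside the gate. The difference was 3.43 ± 1.82 percentage points and was positive in 7 of 7 libraries. By library the gate and its outside stood at 23.6% and 20.3% in the Aire trace, 26.1% and 20.6% in isotype week 2, 23.7% and 20.3% in isotype week 10, 26.2% and 20.6% in anti-RANKL week 10, 25.2% and 21.8% in anti-RANKL week 4, 24.9% and 22.4% in anti-RANKL week 6, and 21.0% and 20.7% in anti-RANKL week 2. The last library, with 17 cycling cells, showed almost no difference (0.298 points). With each cell thinned to 2000 UMIs, and the 172 shallower cells (111 in anti-RANKL week 4 and 61 in week 6) left out, the mean difference was 3.11 points, positive in 7 of 7, and as the mean of per-cell shares it was 3.03 ± 2.90 points, positive in 5 of 7.

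**Figure D1:**
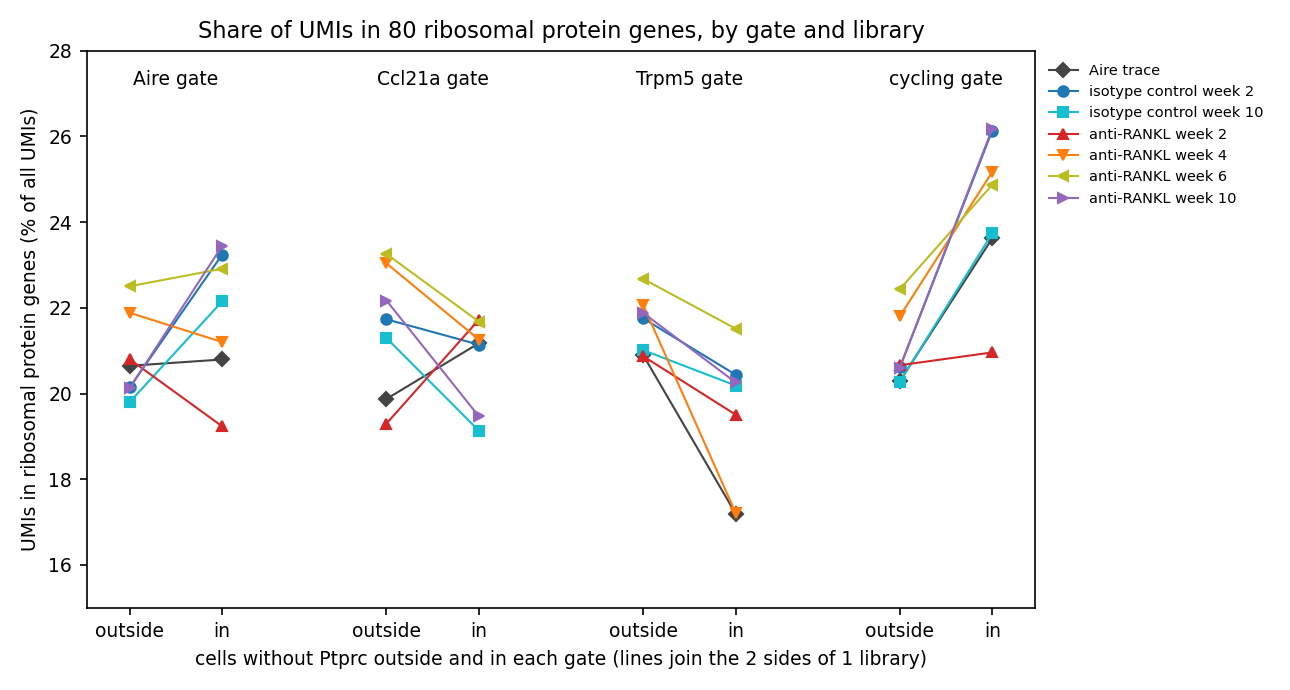
Share of all UMIs that fell in the 80 ribosomal protein genes (y axis, percent, starting at 15), in cells outside and in each of 4 gates. Each line joins both sides of 1 library. All 7 lines rise for the cycling gate and fall for the Trpm5 gate, while lines of both directions occur for the Aire and Ccl21a gates.

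Gene by gene, each member was compared between the gate and its outside within libraries, with limma on summed UMIs, a term for the library and Benjamini-Hochberg adjustment over all genes tested. A gene is called here at an adjusted p of at most 0.05. In the cycling gate 64 of the 78 members tested were called higher and 1 lower, where 26.7% of all 8087 genes tested were called higher and 32.6% lower. Among genes at 500 CPM or more, 53.2% were called higher and 78.8% in either direction. The members' median log2 difference was 0.25 and that of all genes was -0.08. Of the large subunit 38 of 47 were higher, and of the small subunit 26 of 31.

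Rpsa, the small-subunit protein also known as the laminin receptor, led the cycling cells. Its level was 2149 to 3819 CPM in the gate (median 2845) and 1557 to 2248 outside (median 1881), higher in 7 of 7 libraries, with a log2 difference of 0.67 ± 0.046 (SE) and an adjusted p of 3.47e-07. Rps2, a neighbour of the mRNA entry channel, was at 3261 to 4516 in the gate and 2245 to 2652 outside, so that the sides did not overlap, with a log2 difference of 0.62 ± 0.048. Rpl12 (0.51), Rpl4 (0.49) and Rplp0 (0.43) were among those that followed, each higher in 7 of 7 libraries. Rpl12 and Rplp0 sit together at the base of the stalk, which recruits the translation factors. The stalk proteins Rplp1 (0.25) and Rplp2 (0.24) and the ubiquitin fusion gene Rps27a (0.28) were higher as well, as were Rpl3 (0.41) and Rpl39 (0.12), the parent genes of Rpl3l and Rpl39l.

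In this gate 13 members did not pass the test. Among them were Rps14, Rps28, Rps29, Rpl30, Rpl31, Rps21, Rpl37, Rpl10, Rpl38, Rpl34, Rpl17 and Rpl35a, with log2 differences from -0.00 for Rps14 to 0.11 for Rpl35a. The cells of the cycling gate were deeper than their outside in 7 of 7 libraries, with medians of 7890 to 33812 against 4205 to 15959 UMIs per cell. Against only those outside cells that were at least as deep as the median gate cell, 65 members were called higher and 0 lower. In that fit 2691 of all 7737 genes tested were called in either direction. The share difference was 3.24 ± 2.50 points, positive in 6 of 7 libraries. The 12 T-cell genes summed to 665 CPM in the 14 cycling cells of anti-RANKL week 4 and to 14.2 to 184 in the other libraries. Without that library 63 members were called higher and 1 lower, where 4962 of 8160 genes were called in either direction.

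Rps27 was the exception. This zinc-finger protein of the small subunit was at 2618 to 4568 CPM in cycling cells (median 3176) and at 3162 to 5600 outside (median 4237), lower in 7 of 7 libraries, with a log2 difference of -0.35 ± 0.036 and an adjusted p of 8.83e-06. Its paralog Rps27l, which encodes a nearly identical protein and is known as a p53 target, was at 617 to 855 in cycling cells and 532 to 659 outside, higher in 7 of 7, with a log2 difference of 0.30 ± 0.046 and an adjusted p of 1.78e-04. The retrogene Rps27rt was lower with Rps27 (-0.45 ± 0.047, adjusted p = 9.53e-06), and Rps27 and Rps27rt summed gave -0.37. Reads of these copies may be shared.

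The lower level of Rps27 was not found against the deeper outside cells. Against outside cells at least as deep as the median cycling cell its log2 difference was -0.03 (adjusted p = 0.573, lower in 6 of 7 libraries), while that of Rps27l was 0.29 (adjusted p = 0.00417, higher in 7 of 7) and those of Rpsa and Rps2 were 0.46 and 0.48. This choice of outside cells changes their depth and may change their makeup, and the part of each was not tested. Among Aire-gate cells alone, in the 4 libraries with enough cycling cells, Rps27 was lower (-0.19, adjusted p = 0.00127) and Rps27l higher (0.26, adjusted p = 0.00105).

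**Figure D2:**
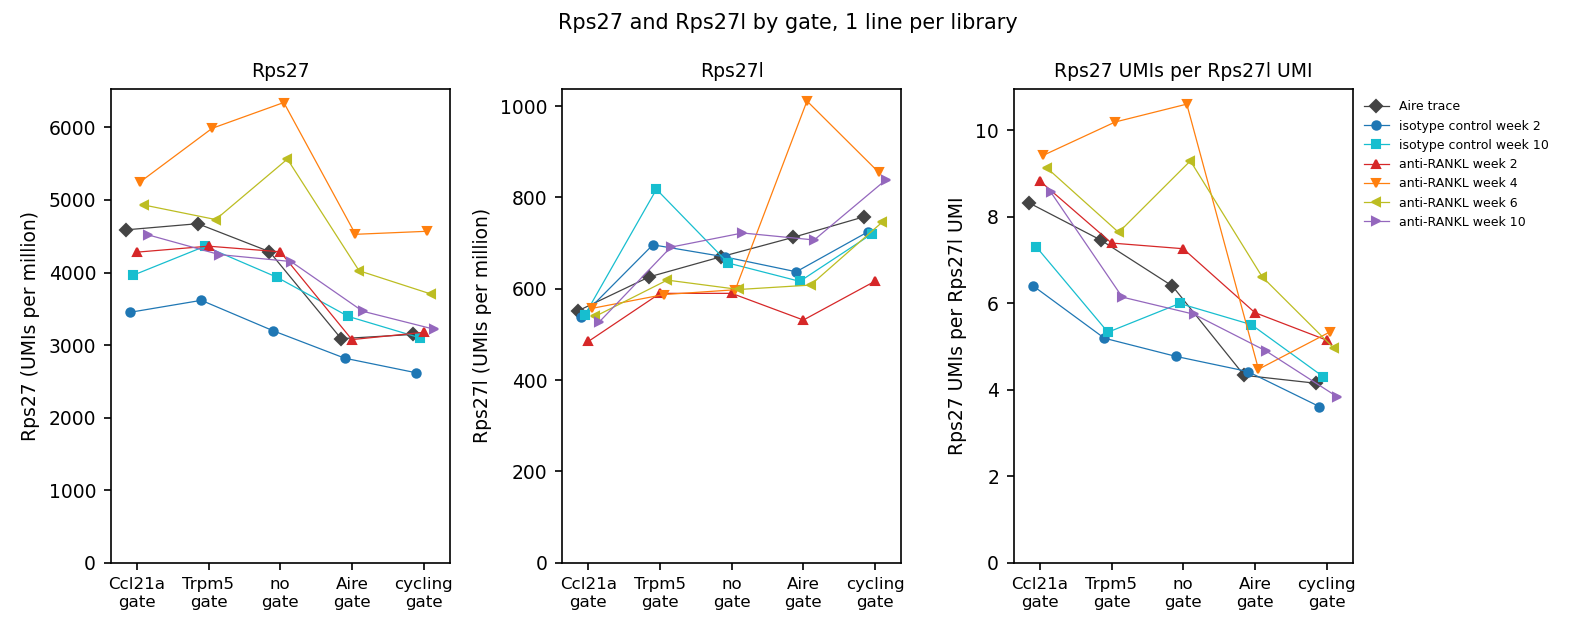
Rps27 (left) and Rps27l (middle) in CPM, and Rps27 UMIs per Rps27l UMI (right), by gate with 1 line per library and axes from 0. The ratio ranged from 6.41 to 9.43 in the Ccl21a gate and from 3.61 to 5.34 in the cycling gate, without overlap.

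The ratio of the pair, computed after their values were seen and given as a description, put the gates in an order. Rps27 UMIs per Rps27l UMI were 8.58 in the median library for the Ccl21a gate (6.41 to 9.43), 7.39 for the Trpm5 gate (5.19 to 10.2), 6.40 for cells of no gate (4.77 to 10.6), 4.90 for the Aire gate (4.34 to 6.62) and 4.31 for the cycling gate (3.61 to 5.34). Neighbouring gates in this order overlapped in range. The Aire and cycling gates were deeper than their outside in 7 of 7 libraries, the Trpm5 gate in 6 and the Ccl21a gate in 3. The part of depth in the ratio was not tested. Rps27rt held 11.5% (isotype week 2) to 42.7% (anti-RANKL week 6) of the UMIs of Rps27 plus Rps27rt. Reads shared between these copies may change the ratio. In Aire-gate cells that were not cycling the ratio was 4.48 to 6.91, and in Ccl21a-gate cells that were not cycling 6.59 to 9.46, which overlapped only between the highest of the first and the lowest of the second.

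The counts in other lists of the cycling gate stand beside 26.7% of all genes called higher and 32.6% called lower. Of 34 ribosome biogenesis genes 33 were called higher, with a median log2 difference of 0.80. Nop56 and Nop58, core proteins of the snoRNPs that methylate ribosomal RNA, were higher by 1.46 and 1.28, and Dkc1, the pseudouridine synthase of the other snoRNP class, by 1.35. Of 40 translation factor and other TOP genes 27 were higher and 3 lower (median 0.31), led by Nap1l1 (1.55), Hnrnpa1 (1.15) and Eif2s1 (1.08). Of 75 mitochondrial ribosomal protein genes 50 were higher and 1 lower (median 0.34), led by Mrpl18 (1.03). Among 18 regulators 5 were higher and 5 lower, shares near those of all genes. Mxd3, a MAX partner known in S phase, was higher by 5.32 on the log2 scale, while Mxd1, a MYC antagonist, and Cdkn1a, the cell cycle inhibitor p21, were lower by -1.44 and -1.45.

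**Figure D3:**
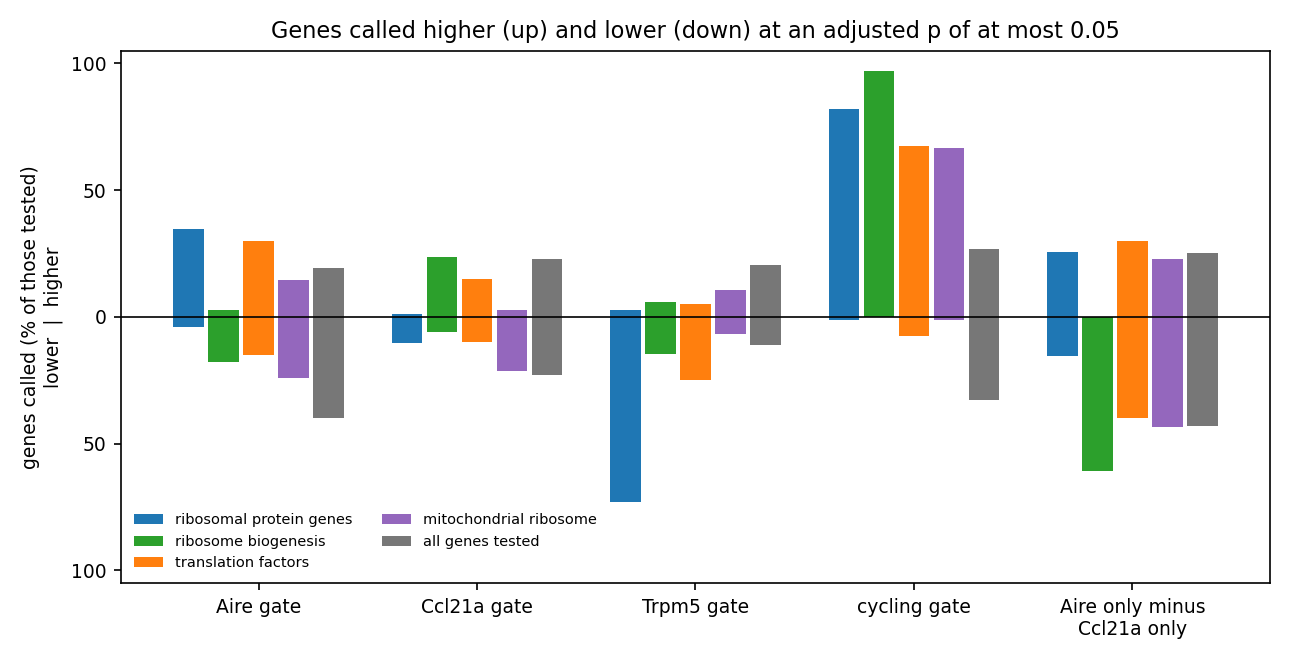
Percent of the genes tested in each list that were called higher (bars up) or lower (bars down) at an adjusted p of at most 0.05, in 5 comparisons. In the cycling gate 33 of 34 ribosome biogenesis genes and 64 of 78 ribosomal protein genes were higher; in the Trpm5 gate 57 of 78 ribosomal protein genes were lower.

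Trpm5-positive cells had the opposite pattern. Ribosomal protein genes took 19.5% ± 1.7 of their UMIs against 21.6% ± 0.69 outside, a difference of -2.12 ± 1.53 points that was negative in 7 of 7 libraries. The largest differences were in anti-RANKL week 4 (-4.85) and the Aire trace (-3.70), and the other 5 libraries lay between -1.62 and -0.827. With each cell thinned to 2000 UMIs the mean was -2.79. With the gates called again after thinning it was -4.26. Of the 78 members 57 were called lower and 2 higher, where 11.0% of all 8546 genes tested were called lower and 20.3% higher. Among genes at 500 CPM or more 48.4% were called lower, 22.3% higher and 70.7% in either direction. The median log2 difference of the members was -0.17.

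The lowest were Rpl10, a late-joining protein of the large subunit near its active site (2506 to 3750 CPM in the gate, 3625 to 4196 outside), Rps2 and Rpl13. Their log2 differences were -0.28 ± 0.044, -0.27 ± 0.058 and -0.25 ± 0.050, with adjusted p from 8.60e-04 to 0.00571. Each was lower in 7 of 7 libraries. Rplp0 (-0.23), Rpsa (-0.23), Rplp2 (-0.20) and Rplp1 (-0.15) were also lower. Rps27 (0.14 ± 0.039, adjusted p = 0.0205, higher in 6 of 7) and Rpl41 (0.08 ± 0.024, adjusted p = 0.0251, higher in 7 of 7) were the 2 members called higher. Neither passed when the sums were scaled by the median of gene ratios (Rps27 at 0.05, adjusted p = 0.366, and Rpl41 at -0.01), when the members were left out of the library size, with limma-trend, or without either isotype library (Rps27 at adjusted p = 0.0584 and 0.0571, Rpl41 at 0.056 and 0.0705). Rpl41 also did not pass without anti-RANKL week 2 (log2 difference 0.07). Against outside cells at least as deep as the median gate cell, Rps27 was at 0.26 (adjusted p = 1.27e-04, higher in 7 of 7). Rpl41 was at 0.06 there and did not pass (adjusted p = 0.0761). Without both the anti-RANKL week 4 and week 6 libraries, Rps27 (0.17, adjusted p = 0.013) and Rpl41 (0.09, adjusted p = 0.0188) passed. Rps27l (0.12, adjusted p = 0.0962) and Rps24 (0.07, adjusted p = 0.191) came next and did not pass.

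Beside the 11.0% of all genes called lower and 20.3% called higher in this gate, 5 of 34 ribosome biogenesis genes were lower and 2 higher, and 10 of 40 translation factor and other TOP genes were lower and 2 higher. Tsr1, an assembly factor of the small subunit, was higher by 1.81 (6 of 7 libraries) and Mrpl57, of the mitochondrial large subunit, by 1.08 (7 of 7). Eif5b was higher by 0.52, and Eef1d and Eef1g were lower by -0.29 and -0.28. Among 19 regulators 5 were higher and 2 lower, with Rptor, a subunit of mTORC1, higher by 0.58 and Cdkn1a by 0.57. Of the 545 cells, 124 also passed the Ccl21a gate. The cells left out for Ptprc held the 5 tuft genes at 109 to 2530 CPM (median 920), against 46.1 to 133 in cells of no gate. With all cells kept whatever their Ptprc 67 members were lower and 2 higher, where 3225 of 8562 genes were called. Cells of the Trpm5 gate alone against cells of no gate differed in share by -2.61 ± 2.82 points, with 1 of 7 libraries positive. With the library left out of the model 4 members were called, each lower, where 845 of 8546 genes were called in either direction.

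Cells of the Aire gate did not differ from the rest in one direction. Their share was 21.9% ± 1.5 against 20.8% ± 1.0 outside, a difference of 1.01 ± 1.92 points. It was 3.10 in isotype week 2, 2.35 in isotype week 10, 3.32 in anti-RANKL week 10, 0.408 in anti-RANKL week 6 and 0.147 in the Aire trace, and negative in anti-RANKL week 2 (-1.56) and week 4 (-0.682). The libraries with 453 to 549 Aire-gate cells were thus those with a difference over 2 points. With each cell thinned to 2000 UMIs the mean was 0.170 points, positive in 3 of 7.

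Single members were nonetheless called in this gate, in both directions. There were 27 higher and 3 lower, where 19.4% of all 8468 genes tested were called higher and 40.0% lower. Among genes at 500 CPM or more 38.1% were called higher, 27.3% lower and 65.4% in either direction. All genes tested had a median log2 difference of -0.15 against 0.08 for the members. Scaled by the median of gene ratios, 58 members were higher and 1 lower, where 4723 of the 8468 genes were called in either direction. The members' median was then 0.22. The number of members called higher thus rested on the scaling. Markers of other cell types also differed by gate. The 5 myeloid and dendritic genes summed to 362 to 872 CPM in the Aire gate and 13.5 to 271 in the Ccl21a gate, mostly Lyz2, the 4 erythroid genes to 31.9 to 238 and 0.785 to 15.5, and the 12 T-cell genes to 21.2 to 128 and 16.7 to 96.6, with Cd3e at most 7.55 in the Aire gate. Their part in the members' differences was not tested.

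Rplp0, the stalk base, was the highest at a log2 difference of 0.43 ± 0.036 (adjusted p = 1.73e-05). It was at 3545 to 5489 CPM in the gate (median 3959) and 2730 to 4018 outside (median 3022), higher in 7 of 7 libraries. Rps12 (0.39 ± 0.034), Rpsa (0.34 ± 0.051) and Rpl23a (0.33 ± 0.040) came next, each higher in 7 of 7. Rplp2 was higher by 0.30, Rps26 by 0.28 and Rps27a by 0.20, while Rplp1 did not pass the test (0.06). The stalk genes thus did not share one call. The 3 members called lower were Rps27 (-0.34 ± 0.047, adjusted p = 2.71e-04, lower in 7 of 7), Rpl9 (-0.16) and Rps14 (-0.14). Rpl30 (-0.13) did not pass. Rpl9 and Rps14 did not pass without any 1 of the Aire trace and the anti-RANKL week 2, week 4 and week 6 libraries (adjusted p from 0.0584 to 0.0897 for Rpl9 and from 0.0827 to 0.121 for Rps14). Under the median-of-ratios scaling Rpl9 was at -0.02 and Rps14 at 0.0047, and neither passed. Rps27l was at 0.09 (adjusted p = 0.337) and Rpl3 at 0.11 (adjusted p = 0.177), while Rpl39 was higher by 0.13.

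Aire-gate cells were deeper than the rest in 7 of 7 libraries (medians 7267 to 21905 against 4127 to 14015). Against outside cells at least as deep as the median gate cell, 16 members were called higher and 3 lower. In that fit 4056 of all 8168 genes tested were called in either direction. Rplp0 was at 0.22 (adjusted p = 6.46e-04), Rps12 at 0.24 and Rpl23a at 0.28, each higher in 7 of 7, whereas Rps27 was at -0.09 (adjusted p = 0.0763) and Rpsa at 0.11 (adjusted p = 0.0607).

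The counts in other lists of the Aire gate stand beside 19.4% of all genes called higher and 40.0% called lower. Of 34 ribosome biogenesis genes 1 was higher and 6 lower, with Ubtf, which opens ribosomal DNA for RNA polymerase I, at -0.74 and Mybbp1a at -0.51. Of 40 translation factor and other TOP genes 12 were higher and 6 lower, led by Eif5a (0.55), Eif3l (0.51) and Eif3c (0.41). Of 75 mitochondrial ribosomal protein genes 11 were higher and 18 lower, with Mrpl38 (1.28), Mrpl13 (1.03) and Mrpl45 (0.70) leading. Among 18 regulators 2 were higher and 8 lower, among them Mxi1 (-1.35), a MYC antagonist, and Cdkn1a (-1.05).

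**Figure D4:**
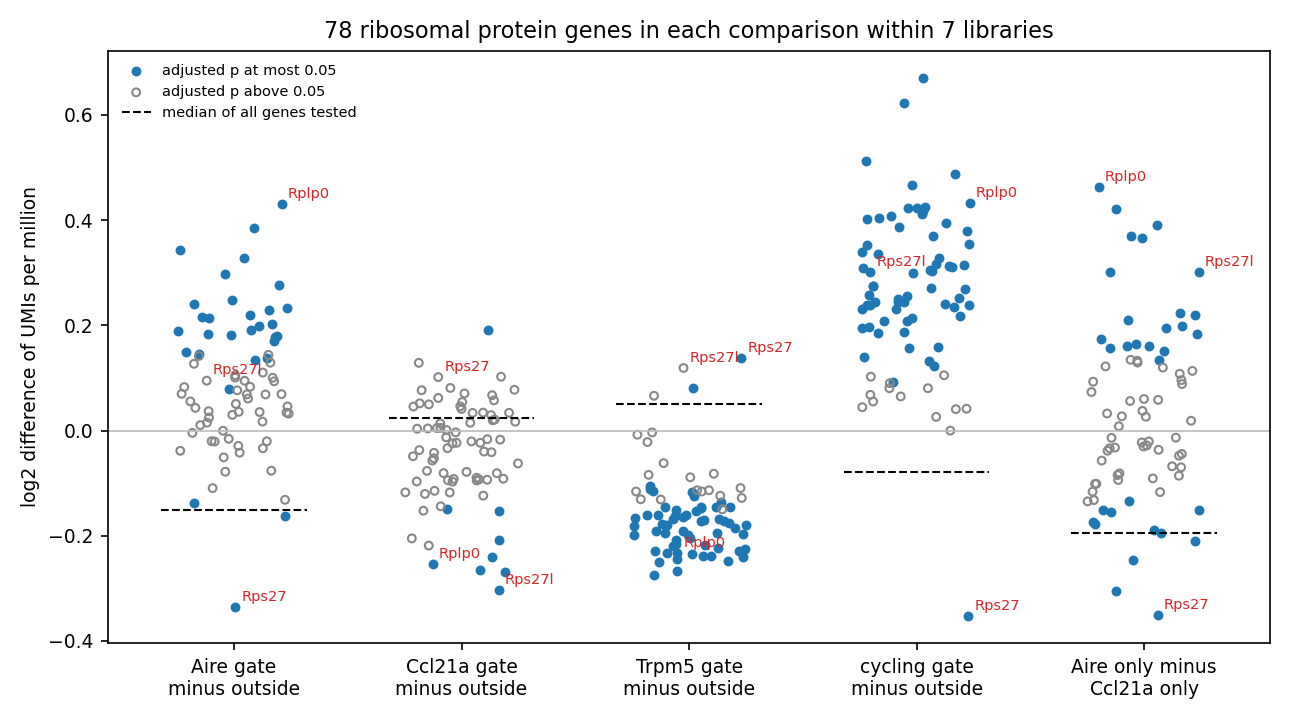
Log2 differences of 78 ribosomal protein genes in 5 comparisons within 7 libraries. Filled points have an adjusted p of at most 0.05, dashed lines are the median of all genes tested, sideways spread has no meaning, and Rps27, Rps27l and Rplp0 are named. Rps27 is at -0.34 in the Aire gate, -0.35 in the cycling gate and 0.14 in the Trpm5 gate.

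In the Ccl21a gate few members passed. The share was 20.8% ± 1.1 against 21.5% ± 1.5 outside, a difference of -0.727 ± 1.91 points that was negative in 5 of 7 libraries and positive in anti-RANKL week 2 (2.42) and the Aire trace (1.30). It was 0.0426 when cycling cells were left out and 0.0310 when cells were thinned, so its sign rested on these choices. There were 8 members called lower and 1 higher, where 23.1% of all 8249 genes tested were called lower, 23.0% higher and 46.1% in either direction. Among genes at 500 CPM or more 28.2% were called lower, 27.9% higher and 56.2% in either direction. Scaled by the median of gene ratios 6 members were lower and 0 higher, where 3872 of 8249 genes were called. With cycling cells left out 6 were lower and 4 higher (3869 of 8276 genes called). With cells of this gate alone against cells of no gate the majority turned, with 2 lower and 3 higher (2961 of 8236 genes called). Against outside cells at least as deep as the median gate cell 16 were lower and 2 higher, where 4477 of 8188 genes were called.

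Rps27l had the lowest log2 difference, at 485 to 557 CPM in the gate and 600 to 727 outside without overlap, with a log2 difference of -0.30 ± 0.046 and an adjusted p of 8.15e-04. The other 7 called lower were Rpl23a (-0.27), Rps26 (-0.27), Rplp0 (-0.25), Rplp1 (-0.24), Rplp2 (-0.21), Rps27a (-0.15) and Rpl41 (-0.15). Rpl9 (0.13), Rpl15 (0.10) and Rps27 (0.10, adjusted p = 0.219) did not pass, and Rpsa (-0.22, adjusted p = 0.073) did not either. Against the deeper outside cells Rps27 was higher (0.22, adjusted p = 0.0132) and Rps27l was at -0.35. Without anti-RANKL weeks 4 and 6, Rps27 (0.19, adjusted p = 0.0196) and Rpl9 (0.21, adjusted p = 0.00778) passed as higher, while Rplp0 (adjusted p = 0.059) and Rps27a (adjusted p = 0.0888) no longer passed. In anti-RANKL week 4 Rps27 was at 5251 CPM in the gate and 6218 outside. Cycling among Ccl21a-gate cells did not come with a higher share: in the 3 libraries with at least 10 such cells the difference was -0.610 ± 1.34 points, positive in 1. Among Aire-gate cells it was 3.98 ± 1.29 points, positive in 4 of 4, and among all cells outside the Aire gate 3.84 ± 2.77 points, positive in 7 of 7. Of the 479 cycling cells 228 also passed the Aire gate and 68 the Ccl21a gate. The differences between these groups were not tested.

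In the Ccl21a gate, where 23.0% of all genes were called higher and 23.1% lower, 8 of 34 ribosome biogenesis genes were higher, a share near that of all genes, and 2 were lower, with Wdr43 at 0.50 and Ubtf at 0.41. Of 40 translation factor and other TOP genes 6 were higher and 4 lower. Tpt1, a TOP mRNA, was higher by 0.40, while Eif5a and Eif2s2 were lower by -0.48 and -0.40. Of 75 mitochondrial ribosomal protein genes 2 were higher and 16 lower, the latter also near the share of all genes, with Mrpl38 at -1.06 and Mrpl13 at -0.89. Among 19 regulators 2 were higher and 3 lower, with Mxd1 at -1.76.

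Cells that passed the Aire gate alone were also set against cells that passed the Ccl21a gate alone. The share differed by 0.490 ± 2.21 points, higher in 5 of 7 libraries. Its sign turned with the mean of per-cell shares (-0.390) and with cells thinned to 2000 UMIs (-0.563). There were 20 members called higher and 12 lower, where 25.2% of all 8140 genes tested were called higher, 43.1% lower and 68.3% in either direction. Among genes at 500 CPM or more 39.5% were called higher, 34.4% lower and 74.0% in either direction. The median of all genes was -0.19 and that of the members 0.01. Scaled by the median of gene ratios, 42 were higher and 1 lower, where 5285 of the 8140 genes were called in either direction. Without the anti-RANKL week 10 library 13 were higher and 15 lower (5155 of 8163 genes called). Without both the week 4 and week 6 libraries 11 were higher and 6 lower (5552 of 8374 genes called).

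Rplp0 was the highest again, at 3607 to 5381 CPM in Aire-only cells and 2584 to 3380 in Ccl21a-only cells without overlap (log2 difference 0.46 ± 0.063, adjusted p = 4.80e-05). Rps12 (0.42), Rpl23a (0.39), Rps26 (0.37) and Rplp2 (0.37) were higher in 7 of 7 libraries, and Rplp2 did not overlap either, at 3679 to 4862 against 2647 to 3595. Rps27l was higher by 0.30 ± 0.075 (adjusted p = 0.00388, 7 of 7). Rps27 was lower by -0.35 ± 0.049 (adjusted p = 5.48e-05, 7 of 7), followed by Rpl9 (-0.31), Rpl14 (-0.25), Rps14 (-0.21) and Rpl30 (-0.19, named after its value was seen), each lower in 7 of 7. Aire-only cells were deeper than Ccl21a-only cells in 7 of 7 libraries (medians 7826 to 20022 against 4300 to 13875 UMIs). With gates called after thinning to 2000 UMIs 19 members were higher and 8 lower, where 5207 of 8098 genes were called. Rps2, the second in cycling cells, was at 2172 to 2901 CPM against 2199 to 3085, higher in 2 of 7.

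In the same comparison 0 of 33 ribosome biogenesis genes were called higher and 20 lower (where 43.1% of all genes were lower), with a median of -0.34 against -0.19 for all genes. Among them were Mybbp1a (-1.04), Ubtf (-1.01) and Nop2 (-0.82). Of the translation factor and other TOP genes 12 of 40 were higher and 16 lower, shares near those of all genes tested. Eif5a, whose product relieves stalled ribosomes, was higher by 0.62 and Eif2s2 by 0.52, while Eif3d was lower by -0.53. Of 74 mitochondrial ribosomal protein genes 17 were higher and 32 lower, also near those shares (25.2% and 43.1%). Mrpl38 (1.92) and Mrpl13 (1.62) led the higher ones, at 657 and 170 CPM on average in Aire-only cells and 169 and 57.3 in Ccl21a-only cells. Among 18 regulators 6 were higher and 6 lower, with Mxd1 at 1.92, Rptor at 0.85 and Mxi1 at -1.63.

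Summed over all cells, none of the 78 members that passed the filter on low values differed by more than 1.5-fold between anti-RANKL and isotype libraries of the same age. Each of these comparisons had 1 library per group, so no test was possible and the intervals cover counting error only. At week 2, 0 of 78 members differed by more than 1.5-fold between the anti-RANKL and isotype libraries, where 36.0% of all 9448 genes did and 30.2% of the genes at 500 CPM or more. At week 10, 0 of 78 did, where 5.75% of all 8919 genes and 1.14% of those at 500 CPM or more did.

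The members nearest the limit at week 2 were Rpl6l (688 CPM under anti-RANKL and 464 under isotype, 1.48-fold, uncertain as a pseudogene) and Rps27 (4207, Poisson 95% interval 4173 to 4240, and 3058, interval 3035 to 3082, 1.38-fold). On the low side were Rpl23a (2332 and 3180) and Rps12 (3330 and 4481, 0.743-fold). Rplp0 was at 3074 and 4106 (0.749-fold). The anti-RANKL library held 62 Aire-gate cells and the isotype library 456, so cell composition and level per cell cannot be told apart in these sums. Among Ccl21a-gate cells alone Rpl6l was the 1 member past 1.5-fold (739 and 458 CPM), where 17.4% of all genes were past it. Among Aire-gate cells 0 members were past 1.5-fold, where 29.8% of all genes were, but their median log2 difference was -0.30 against 0.01 for all genes. The share of ribosomal protein UMIs in Aire-gate cells that were not cycling was 19.2% under anti-RANKL (60 cells) and 22.5% under isotype (392 cells). At week 10 no member was past it in either gate, where 19.0% of all genes in the Ccl21a gate and 8.61% in the Aire gate were. In that week, when the libraries held 453 and 549 Aire-gate cells, Rps27 stood at 3883 and 3630 (1.07-fold), Rps12 at 2899 and 2707 (1.07-fold) and Rplp0 at 4567 and 4754 (0.961-fold).

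Between the isotype libraries, which differ in age as well as week, 3 members were past 1.5-fold, all lower at week 10, where 10.0% of all 8954 genes were past it in either direction and 6.12% of those at 500 CPM or more. They were Rps12 (4481 at week 2 and 2707 at week 10, 0.604-fold), Rpl12 (1864 and 1229, 0.659-fold) and Rplp1 (5034 and 3321, 0.660-fold). With median-of-ratios scaling 1 was past it. Among Ccl21a-gate cells 5 members were lower by more than 1.5-fold, and among Aire-gate cells 3, where 17.4% and 12.3% of all genes were past it. In anti-RANKL week 10 Rps12, Rpl12 and Rplp1 stood at 2899, 1315 and 3896, near the isotype library of the same week. These libraries had median depths of 17135 (isotype week 2), 8292 (isotype week 10) and 7297 UMIs per cell, and the part of depth, age or library was not tested.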

How the data were processed

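The authors counted reads with Cell Ranger on mm10, with the zsGreen transcript added to the reference for the Aire trace library, and the submitters' processing notes name Cell Ranger 2.2.0 and Seurat 2.3.4. The deposited values are natural log of 1 plus UMIs per 10000, per cell. Whole UMIs were recovered for every cell (tolerance 0.001). The combined tables with 10760 columns were not used. UMIs were summed per library and side of a gate (at least 10 cells a side), genes with 10 CPM in 1 of 2 sums or more were kept, and limma 3.58.1 (R 4.3.3) with voom weights was fitted with the library as a block. All sides of 1 library share its preparation, and the p-values measure how the differences within libraries spread over the libraries fitted. There were 7 of these in the main fits and fewer in some alternatives. They differ in treatment, age or mouse line and are not replicates of 1 group. In simulated sums of the cycling gate (8206 genes), 98.8% of 2-fold and 76.8% of 1.5-fold changes were recovered. The 1.5-fold recovery was 85.3% for the Aire gate (8390 genes), 95.8% for the Ccl21a gate (8426), 61.5% for the Trpm5 gate (8702) and 60.4% for Aire only against Ccl21a only (8153). These sums were drawn with a fixed spread within libraries and only a small part of the genes changed. Most differences of the members were below 1.5-fold and were not simulated, so these rates do not give the recovery for them. Genes are named by rule: in each comparison the 4 members with the highest and the 4 with the lowest log2 difference, the 5 highest and 5 lowest by level, symbols ending in l with their parent gene, the stalk genes, Rpsa and Rps27a, members past 1.5-fold, and up to 3 genes of each list by size of difference. The members, gates and lists were chosen with earlier results of these data known. Alternatives covered scaling, filters, thinning, gate overlaps, depth and each library left out. Members with no RefSeq entry are named without sequence. Some genes that this rule names are not reported here. Python 3.11.15 was used for sums and figures.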

Additional observations from a re-analysis of the deposited data

Results flagged for a closer look

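In 3 comparisons the age-matched libraries of week 2 moved in opposite directions, with 1 library on each side and no test of the difference. For the Aire gate the share of UMIs in ribosomal protein genes was -1.56 points against outside cells under anti-RANKL (62 gate cells) and 3.10 points under isotype control (456 gate cells), a difference of -4.66 points. For the Ccl21a gate the values were 2.42 and -0.591 points, a difference of 3.02. For Aire-only against Ccl21a-only cells they were -2.60 and 1.35 points, a difference of -3.94. At week 10 the 2 libraries had the same sign in each of these comparisons.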

How the results depend on the processing

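Of the counts of calls and share differences, 165 alternatives kept their direction and stayed within 1.5 times (counts) or within 1 SD between libraries (shares), 15 moved further and 8 turned. For the shares this SD is wide: the Aire gate difference of 1.01 points was 0.170 after thinning, 0.312 as the mean of per-cell shares and 0.335 against deeper outside cells. Leaving out 1 library gave 26 to 42 members called for the Aire gate, 5 to 14 for the Ccl21a gate, 43 to 56 for the Trpm5 gate, 62 to 71 for the cycling gate and 24 to 36 for Aire only against Ccl21a only, whose majority turned without anti-RANKL week 10 (28 called). The Ccl21a count was 14 without anti-RANKL week 2 and 5 without either isotype library. The share differences ranged over 0.625 to 1.44, -1.25 to -0.397, -2.33 to -1.66, 3.07 to 3.95 and 0.0767 to 1.00 points in the same order.

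Median-of-ratios scaling gave 59 members called in the Aire gate. Outside cells at least as deep as the median gate cell, a choice made after seeing the data, gave 19 in the Aire and 18 in the Ccl21a gate. With anti-RANKL weeks 4 and 6 both left out, also added later, 17 members were called for Aire only against Ccl21a only and the others stayed within 1.5 times. With no replicate block, 3 members were called in the Ccl21a gate (3386 of 8249 genes) and 4 in the Trpm5 gate (845 of 8546 genes). With cells of a single gate against cells of none, 5 members were called in the Ccl21a gate, with the majority higher, and its share difference was 0.599 points, while that of the cycling gate was 6.99 (4 libraries). The Ccl21a difference was also positive with cycling cells left out (0.0426), as the mean of per-cell shares (0.0235) and after thinning (0.0310). Aire only against Ccl21a only was -0.390 as the mean of per-cell shares and -0.563 after thinning, and the Trpm5 difference was -4.26 with gates called after thinning. The cause was not tested. At week 2, 1 member was past 1.5-fold in Ccl21a-gate cells, in cells of no gate and with no filter on low counts, and at week 10, 2 were with no filter.

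For single named genes 1228 alternatives kept call and direction, 118 lost a call, 23 gained one and 3 turned. Those that turned were Rps14 in the Aire gate (0.0047) and Rpl41 in the Trpm5 gate (-0.011) under median-of-ratios scaling, and Rps14 in the cycling gate with cells of a single gate (0.21). Depth limits the lowest members, Rpl3l and Rpl39l, with 57 and 48 UMIs in all.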

Other observations

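Ribosomal proteins outside the rule gave values of both kinds in the cycling gate. Rpl22l1, a paralog of Rpl22 known in T-cell development, was higher by 0.47 on the log2 scale, while Rpl22 itself was higher by 0.23 (adjusted p = 9.33e-04). Rpl7l1 was higher by 0.60, Rps3a1 by 0.33 and Rpl36al by 0.27. Fau, made as a fusion with a ubiquitin-like protein, was lower (-0.12, adjusted p = 0.0401). Each of Rpl22l1, Rpl7l1 and Rpl36al was higher in 7 of 7 libraries and Rps3a1 in 6.

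Cells with Ptprc above 0, which the sort for CD45- cells was to leave out, numbered 233 and held 19.8% of their UMIs in ribosomal protein genes, with libraries between 17.1% and 23.3%. Their 12 T-cell genes summed to 316 to 3742 CPM and their 5 tuft genes to 109 to 2530 CPM.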
